A study of Mus musculus with 41 samples.

Results

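The regions described here are the H3K27ac peaks that mouse microglia carried both directly after isolation and after 7 d in culture. They are the peaks of the ex vivo list under 10 kb wide that share at least 1 bp with a peak of the 7 d list, and 16106 of the 24520 ex vivo peaks met this rule (65.7%). Because the members were chosen by the measured peak calls of both conditions, their number, width and extent at 7 d describe the choice and were not tested. Of the other ex vivo peaks, 7890 were under 10 kb with no 7 d peak and 524 were 10 kb or wider. The 7 d list held 31349 peaks, of which 16788 (53.6%) overlapped a member and 13317 under 10 kb overlapped no ex vivo peak.

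The cells, macrophages that live in brain tissue, were sorted from C57Bl6 mice as live CD11b+ CD45Low microglia and were either used at once (ex vivo) or cultured for 7 d in DMEM/F12 with 5% FBS and IL-34 added daily, IL-34 being a ligand of the CSF1 receptor. All groups share the strain and the sort, and no genetic change is given for any of them. Each H3K27ac list was called on 2 pooled ChIP libraries, made from 500000 to 2000000 cells each. H3K4me2 and PU.1 were mapped ex vivo, open chromatin (ATAC) in both conditions, and RNA in 5 ex vivo and 5 7 d libraries, beside 2 libraries at 6 h, 3 at 24 h and 2 at 7 d with TGFb. The label of 1 of the 2 pooled 7 d ATAC libraries gives 8 d, and that of 1 of the 24 h RNA libraries gives 22 h.

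Acetylation of lysine 27 of histone H3 is written mainly by the acetyltransferases p300 and CBP and marks promoters and enhancers that are in use. H3K4me2 marks promoters and enhancers more broadly, whether or not they are acetylated. PU.1 is the ETS-family factor that opens and occupies enhancers throughout the macrophage lineage, so a site bound by PU.1, accessible and acetylated is a typical macrophage regulatory element.

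Promoters under members show what such elements look like. The 4 sequences that follow are the 250 bases before the start of lineage transcription factor genes whose promoter window lay under a member, a PU.1 peak and the ATAC peaks of both conditions, taken in order of RNA level. They are from RefSeq, GRCm38.p6, written 5′ to 3′ along the gene. Capitals mark GGAAG on either strand, an extended form of GGAA, the core read by ETS factors. Cebpa (chr7:35119043-35119292, plus strand) lay under a member of 8728 bp, Tfe3 (chrX:7762411-7762660, plus strand) under one of 9124 bp, Runx1 (chr16:92826075-92826324, minus strand) under one of 5785 bp and Stat3 (chr11:100939541-100939790, minus strand) under one of 6398 bp. C/EBPα, TFE3, RUNX1 and STAT3 are transcription factors of myeloid identity, lysosome control, haematopoietic lineage and cytokine signalling.
Cebpa: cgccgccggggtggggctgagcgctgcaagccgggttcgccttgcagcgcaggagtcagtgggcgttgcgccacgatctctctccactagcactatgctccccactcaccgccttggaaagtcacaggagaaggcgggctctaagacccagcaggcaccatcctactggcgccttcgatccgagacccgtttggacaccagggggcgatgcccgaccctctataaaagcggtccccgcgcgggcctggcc
Tfe3: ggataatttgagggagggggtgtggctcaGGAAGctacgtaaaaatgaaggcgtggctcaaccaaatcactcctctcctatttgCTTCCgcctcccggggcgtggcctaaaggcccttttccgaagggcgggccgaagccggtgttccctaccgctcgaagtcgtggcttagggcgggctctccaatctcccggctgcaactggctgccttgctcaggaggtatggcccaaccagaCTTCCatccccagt
Runx1: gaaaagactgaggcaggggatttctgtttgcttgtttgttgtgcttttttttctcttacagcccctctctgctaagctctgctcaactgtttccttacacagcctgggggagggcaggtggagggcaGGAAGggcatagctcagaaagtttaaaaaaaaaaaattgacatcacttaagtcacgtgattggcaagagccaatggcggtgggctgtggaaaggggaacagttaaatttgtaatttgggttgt
Stat3: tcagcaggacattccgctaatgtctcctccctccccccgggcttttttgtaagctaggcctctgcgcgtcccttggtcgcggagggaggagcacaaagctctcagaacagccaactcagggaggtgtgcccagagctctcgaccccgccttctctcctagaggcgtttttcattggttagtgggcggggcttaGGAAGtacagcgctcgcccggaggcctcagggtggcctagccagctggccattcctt
GGAAG was found 3 times before Tfe3 and once each before Runx1 and Stat3. Cebpa held no GGAAG in this stretch, though it held the shorter GGAA, which was not counted. A PU.1 peak was centred at -87 from the start of Cebpa, at 3 from that of Tfe3, at -22 from that of Runx1 and at -70 from that of Stat3. GGAAG was present in 72% of all 21217 start windows of 300 bases (250 before to 50 after a start) and in 85.4% of the 5396 windows under a member with a PU.1 peak, against 64.8% of the 3450 windows under a member without one.

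The next 5 promoters were chosen after the RNA values had been seen, because their genes belong to 3 groups whose RNA was higher at 7 d while the promoter was acetylated in both conditions. The Lamp1 and Ctsl windows had no PU.1 peak, and that of Ctsl had an ATAC peak at 7 d only. In Lamp1 (chr8:13158911-13159160, plus strand), a lysosomal membrane protein, and Ctsl (chr13:64370521-64370770, minus strand), the protease cathepsin L, capitals mark the E-box CACGTG, the core of the element read by TFE3, TFEB and MITF. In Hmgcs1 (chr13:119690101-119690350, plus strand), an early enzyme of cholesterol synthesis, capitals mark TCACNCCAC, a form of the sterol regulatory element. In Stat2 (chr10:128270248-128270497, plus strand), a transducer of interferon signals, and Bst2 (chr8:71537473-71537722, minus strand), an antiviral membrane protein, capitals mark GAAANNGAA, the spaced repeat read by interferon regulatory factors, on either strand.
Lamp1: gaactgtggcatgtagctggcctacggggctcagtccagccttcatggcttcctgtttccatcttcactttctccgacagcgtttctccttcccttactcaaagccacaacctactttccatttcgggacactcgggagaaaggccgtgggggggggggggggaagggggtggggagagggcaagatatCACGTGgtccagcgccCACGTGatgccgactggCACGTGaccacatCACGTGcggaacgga
Ctsl: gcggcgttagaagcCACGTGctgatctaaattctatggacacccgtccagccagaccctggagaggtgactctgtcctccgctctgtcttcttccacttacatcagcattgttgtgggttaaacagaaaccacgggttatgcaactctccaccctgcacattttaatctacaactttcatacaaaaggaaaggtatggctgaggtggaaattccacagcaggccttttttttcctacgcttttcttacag
Hmgcs1: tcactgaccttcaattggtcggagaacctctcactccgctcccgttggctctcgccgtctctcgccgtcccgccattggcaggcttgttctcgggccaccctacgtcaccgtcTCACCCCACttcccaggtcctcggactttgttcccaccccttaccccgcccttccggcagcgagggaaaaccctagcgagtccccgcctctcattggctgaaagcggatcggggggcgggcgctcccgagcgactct
Stat2: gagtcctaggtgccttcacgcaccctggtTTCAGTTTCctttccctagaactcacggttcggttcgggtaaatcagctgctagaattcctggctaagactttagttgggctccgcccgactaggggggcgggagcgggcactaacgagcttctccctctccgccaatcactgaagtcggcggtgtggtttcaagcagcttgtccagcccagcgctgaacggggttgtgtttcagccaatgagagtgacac
Bst2: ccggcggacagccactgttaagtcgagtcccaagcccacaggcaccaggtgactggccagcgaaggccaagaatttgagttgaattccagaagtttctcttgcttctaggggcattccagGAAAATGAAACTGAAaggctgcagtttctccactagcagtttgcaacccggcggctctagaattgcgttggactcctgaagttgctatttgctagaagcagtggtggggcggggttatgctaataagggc
Lamp1 held 4 E-boxes in these 250 bases and Ctsl 1, Hmgcs1 held 1 sterol element, Stat2 1 interferon repeat on the opposite strand and Bst2 2 overlapping ones. Of the 11 phagocyte and lysosome genes with a member over the start, 4 had an E-box in a start window under a member, beside 12.2% of all 7491 such genes, 4 of 13 immediate-early genes and 3 of 12 cholesterol synthesis genes. The longer MiT/TFE element TCACGTGA, which contains the E-box, was found in none of the 11 (0), beside 2.56% of all 7491 genes. Of the 9 interferon-response genes, 6 had the interferon repeat, beside 7.94%. The sterol element was found in 1 of the 12 cholesterol synthesis genes, beside 1.19%. These are matches of letters and not bound sites.

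Members were broad by the standard of these lists. Their median width was 2104 bp (middle 50% of peaks, 1457 to 3228 bp), against 1083 bp for ex vivo peaks without a 7 d peak and 501 bp, the smallest width the caller gave, for 7 d peaks without an ex vivo peak. Sharing rose with width, from 31.6% of ex vivo peaks of 0.5 to 1 kb over 65.6%, 83.4% and 88.5% to 93.9% of those of 5 to 10 kb. At 7 d a median of 77.13% of a member's length was still covered, 16.2% of members were covered over their whole length, and 0.584% over less than 10%. The 7 d peaks were narrower than the member in 70.9% and wider in 28.4%, with a median log2 width ratio of -0.309. The pooled 7 d H3K27ac sample held 27.6 M tags with 32.13% of them in peaks, against 45.6 M and 64.04% ex vivo, and the part of this gap in the number, width and coverage of shared peaks was not tested.

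At the edges of the rule, the members with the fewest shared bases shared 3 bp, over chr4:106327399-106332352 in Usp24, and 7 bp, over chr16:33151474-33152099. The nearest non-members lay 1 bp, over chr2:90558481-90558981 in Ptprj, and 3 bp, over chr13:20292427-20293794 in Elmo1, from a 7 d peak, and 5.61% of the ex vivo peaks without a 7 d peak were within 1000 bp of one. The widest members measured 9992 bp (chr11:57517046-57527037 over Mfap3, and chr5:114744644-114754635 in Git2). The narrowest peaks outside the width limit measured 10002 bp (chr12:3805672-3815673, over Dnmt3a) and 10008 bp (chr5:123598512-123608519, in Clip1).

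**Figure D1:**
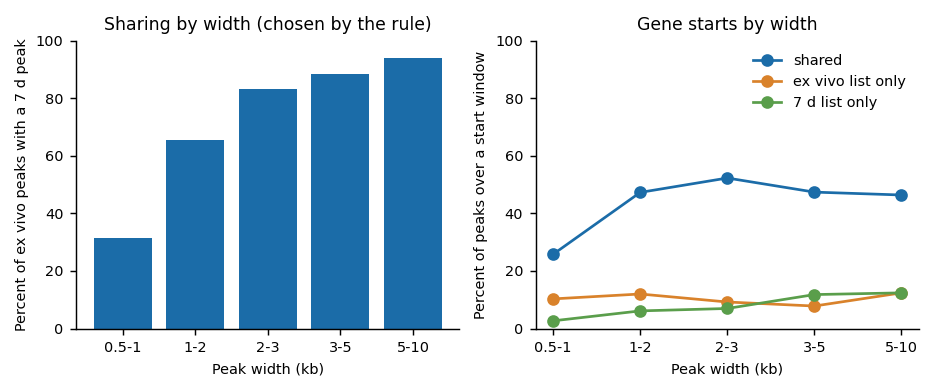
Left, percent of ex vivo H3K27ac peaks that share at least 1 bp with a 7 d peak, by peak width in kb. Right, percent of peaks over a gene start window, by width, for shared peaks, ex vivo peaks with no 7 d peak and 7 d peaks with no ex vivo peak. Sharing rose from 31.6% to 93.9% with width, while the share over a start was higher for shared peaks in every width class.

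Almost every member was an accessible site in both conditions. ATAC peaks overlapped 95.4% of members ex vivo (exact 95% binomial interval 95.1% to 95.7%) and 96.6% at 7 d (96.3% to 96.8%), and 94.1% had an ATAC peak in both lists. H3K4me2 overlapped 89.6% (89.1% to 90.1%) and PU.1 89.1% (88.6% to 89.6%), and all 4 lists overlapped 77.9% of members. Only 0.652% (105 members) overlapped none of the 4. These intervals cover counting error over regions only, since replicates were pooled before peaks were called and regions are not replicates, so no difference between classes of region was tested.

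The same lists overlapped ex vivo peaks without a 7 d peak less often: ATAC ex vivo 76.7%, ATAC 7 d 71.4%, H3K4me2 66.2% and PU.1 73.7%. At equal width the gap was smaller for PU.1. In peaks of 1 to 2 kb, PU.1 overlapped 85.8% of members and 84.4% of the peaks without a 7 d peak, and in peaks of 3 to 5 kb 97.9% and 96.3%. ATAC at 7 d stayed further apart in the 1 to 2 kb class, at 97.2% and 81%, and H3K4me2 at 89% and 71.9%. In peaks of 5 to 10 kb the shares were close, at 99.7% and 96.3% for ATAC at 7 d and 95.6% and 95.4% for H3K4me2. Among distal peaks of 1 to 2 kb, H3K4me2 overlapped 75.3% and 67.9%, ATAC at 7 d 94.8% and 80.5%, and PU.1 89.9% and 86.5%. Among distal peaks of 5 to 10 kb, H3K4me2 overlapped 90.5% of members and 94% of the 84 peaks without a 7 d peak. The 7 d peaks with no ex vivo peak overlapped these lists in 19.4% (H3K4me2) to 40.7% (ATAC 7 d), and 53.9% of them overlapped none.

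**Figure D2:**
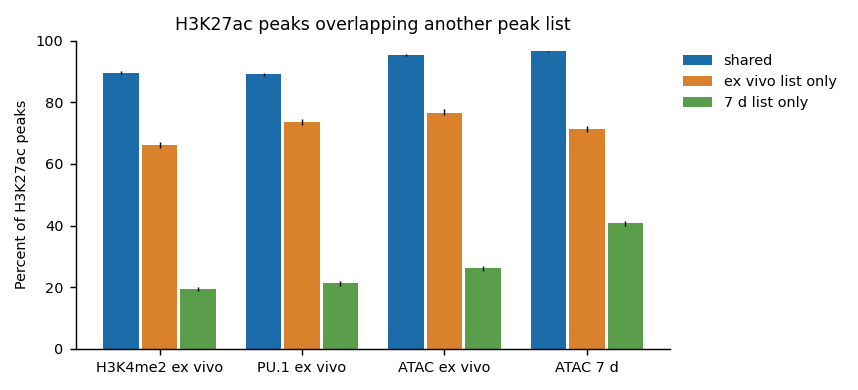
Percent of H3K27ac peaks (y axis) that overlap a peak of each other list by at least 1 bp, for shared peaks, ex vivo peaks under 10 kb with no 7 d peak and 7 d peaks under 10 kb with no ex vivo peak. Bars are shares and lines exact 95% binomial intervals, and shared peaks are highest for all 4 lists, from 89.1% to 96.6%.

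Members lay over gene starts in a larger share than the other ex vivo peaks of equal width. A start window lay under 46.3% of members (7243 of 15647 on the chromosomes compared, 45.5% to 47.1%), against 10.7% of ex vivo peaks without a 7 d peak and 3.73% of 7 d peaks without an ex vivo peak. Within width classes the shares were 25.8% and 10.3% at 0.5 to 1 kb, 47.3% and 12% at 1 to 2 kb, 52.3% and 9.22% at 2 to 3 kb, 47.4% and 7.82% at 3 to 5 kb, and 46.4% and 12.4% at 5 to 10 kb. The share of members more than 1 kb from any gene end was 40.7%, against 77.6% of ex vivo peaks without a 7 d peak. Chromosome 18 was not used here for gene starts.

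Members over starts and distal members had PU.1 in similar shares and H3K4me2 in different ones. PU.1 peaks overlapped 88.9% of the 7243 members over a start and 89.8% of 6583 distal ones (chromosome 18 included). H3K4me2 overlapped 99.4% and 77.7%, ATAC ex vivo 98.7% and 91.6%, and ATAC at 7 d 99.1% and 93.7%. The 1677 members without an H3K4me2 peak were almost all away from starts (2.88% over a start window), yet 85.3% of them had PU.1, 85.1% ATAC ex vivo and 89.9% ATAC at 7 d. At 7 d the peak was narrower in 77.5% of members over starts and in 62.7% of distal ones.

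Sites of factor binding and accessibility sat at the middle of members. Of the 22798 PU.1 sites inside members, 69.6% lay in the middle 50% of the peak's length and 2.17% in the outermost 10%. For ATAC ex vivo the shares were 71.7% and 1.85%. In distal members PU.1 sites reached 1.23 per kb per member within 100 bp of the centre, against 0.986 in members over starts, while ATAC ex vivo reached 1.34 and 1.36.

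**Figure D3:**
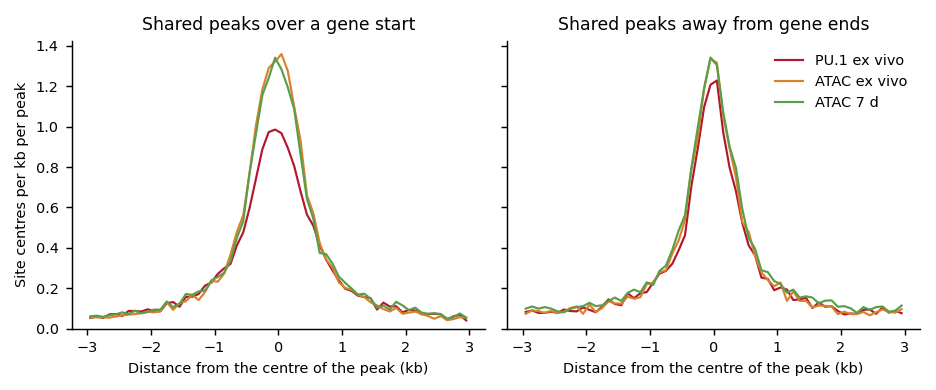
Centres of PU.1 and ATAC sites per kb per shared peak (y axis) against distance from the centre of the peak in kb (x axis), for shared peaks over a gene start (left) and more than 1 kb from any gene end (right). All 3 lines peak at the centre, PU.1 at 0.986 over starts and at 1.23 in distal peaks.

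Inside members the accessible sites themselves were largely the same in both conditions. Of 26418 ex vivo ATAC sites in members, 84.2% overlapped a 7 d ATAC site, against 75.8% in ex vivo peaks without a 7 d peak and 75% of all 90674 ex vivo sites. For 81.3% of the kept sites the nearest 7 d site was centred within 50 bp. Sites with a PU.1 peak were kept more often than those without, at 89% and 75% in members, 82.1% and 59.7% in ex vivo peaks without a 7 d peak, and 83.1% and 66.2% over all sites. Of the 4219 7 d ATAC sites in members that were not found ex vivo, 30.4% lay at an ex vivo PU.1 site, against 13.6% of all such sites. The pooled ATAC samples held 23.8 M tags ex vivo and 15.2 M at 7 d with 25.90% and 37.10% in peaks, and the part of peak strength in these shares was not tested.

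Members with the most PU.1 sites were wide and in most cases reduced at 7 d. The 10 at the top of this ranking measured 7397 to 9910 bp and held 5 or 6 PU.1 sites. The member in Wdfy2 (chr14:62836327-62846236) was covered over 97.3% of its length at 7 d and that over Tfe3 (chrX:7761747-7770870) over 63.9%. The other 8 were covered over 8.46% to 46.4%: those in Jmjd1c (chr10:67111333-67120905) at 43.7%, over Fam110a (chr2:151966388-151974725) at 29.2%, in Jup (chr11:100394723-100403117) at 13.5%, in the phospholipase gene Plcg2 (chr8:117535960-117545110) at 15.8%, in Tmem63a (chr1:180940647-180950185) at 26%, in Wdfy1 (chr1:79755205-79763637) at 46.4%, in Tmcc3 (chr10:94353499-94361974) at 45.1%, and 1 over the start of the gene model Gm32718 but no protein-coding gene body (chr19:56742974-56750370) at 8.46%. The numbers of ATAC sites differed by 0 to 3 between conditions in these 10: the Jmjd1c member held 5 ATAC sites ex vivo and 4 at 7 d, Plcg2 6 and 5, Fam110a 5 and 5, and Tmem63a 5 and 2. Coverage of these 10 was not compared with that of members of equal width. The 2 widest members, taken by width alone, were covered over 25.3% and 10%.

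Start windows under members were rich in CpG and in general promoter motifs. Their median GC content was 62% and 80% had an observed to expected CpG ratio of at least 0.6, against 56.7% and 47.9% over all windows and 50.7% and 19.9% in windows with no H3K27ac peak. The ETS site CCGGAAGT was present in 10.5% of windows under members, against 5.16% of all, GGGCGG (the box read by Sp and KLF factors) in 67.9% against 46.6%, and TATAAA in 5.71% against 12.2%. With a PU.1 peak over the window, CCGGAAGT was present in 14.6% of windows under members and GAGGAA, the core of the PU.1 site, in 31.8%, against 4.26% and 19.2% of those without. Both strands were searched, GGAAG is contained in CCGGAAGT, and the E-box was present in 11% of windows under members and 8.03% of all. Windows of genes whose RNA rose, fell or was not called were alike in GC content, each with a median of 62%.

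Whether a shared promoter peak went with steady RNA was asked of the RNA libraries, which the rule did not use. Libraries of microglia held 13.3 to 28.8 M counts, and levels are given in CPM, counts scaled to library size. Of 24537 gene symbols, 17601 had a start window in the RefSeq table and 7491 had one under a member. Of these, 7324 passed the filter on low counts. The labels do not state whether each library stems from its own animals or culture, so a p-value here reflects library-to-library spread, which may be technical. In bulk RNA, fewer cells of a type cannot be told apart from less RNA per cell.

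Genes with a shared promoter peak were called changed in RNA in a share near that of all genes. At 7 d 2957 of 7324 were called higher (40.4%) and 2295 lower (31.3%) by edgeR's quasi-likelihood test with Benjamini-Hochberg adjustment under 0.05, beside 34.8% and 35.7% of all 13840 genes tested. For 28.3% no change was called, beside 29.5% of all genes. The 13840 genes include these 7324, which draws the shares together. Tested genes with a start window and no H3K27ac peak over it were higher in 21.6% and lower in 46% (n = 1938). Their median level was 1.06 CPM ex vivo. Called changes of at least 2-fold were made for 35.1%, beside 42.5% of all genes, and the median absolute log2 fold change was 0.718 against 0.882. The ex vivo and 7 d libraries did not overlap for 55.2%, beside 52.2% of all genes, a share near the background. The median log2 fold change was 0.131, beside -0.0175 over all genes, and both medians changed with the processing. Of the calls, 56.3% were higher in this fit, beside 49.4% over all genes. With RLE scaling in edgeR 53.2% were higher, beside 46.8% over all genes, and the median was 0.0695, beside -0.0779. With limma on the deposited TPM (pseudocount 1), which changes the values, the filter and the test together, 44.6% were higher, beside 39.6% over all genes. The median was then -0.0675, beside -0.0543. The shared-start median minus that of all genes was 0.149 in the main fit and 0.147 with RLE scaling. It was -0.0133 on TPM with a pseudocount of 1 and positive in every other setting.

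Genes at other kinds of H3K27ac peak leaned further. Those with an ex vivo only peak over the start were called lower in 56.3% and higher in 15.2% (n = 625), those with a 7 d only peak higher in 69.6% and lower in 8.13% (n = 283), and those with a peak of 10 kb or more lower in 65.5% and higher in 16.4% (n = 287). Members over starts marked genes at a median of 30.5 CPM ex vivo and 33.9 CPM at 7 d, while ex vivo only peaks marked genes at 8.6 and 4.87 CPM and 7 d only peaks genes at 1.54 and 10.3 CPM. CPM are not corrected for gene length. These classes were defined by the H3K27ac calls, and no test compared them.

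Other peaks near a gene went with the direction of change. Among genes with a member over the start, 889 also had a distal ex vivo only peak and no distal 7 d only peak nearest to them within 100 kb, and of these 46.1% were lower and 27.8% higher. Of the 1416 with a distal 7 d only peak and no ex vivo only one, 51.6% were higher and 23.1% lower. With both kinds (n = 632) the shares were 34.7% higher and 39.7% lower, and with neither (n = 4387) 40.1% and 29.8%. The median log2 fold changes in the same order were -0.262, 0.408, -0.0922 and 0.151.

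The width of the promoter peak moved with the RNA as well. The 896 genes whose member was under 0.5 of its width at 7 d were lower in 54.9% and higher in 20%, with a median log2 fold change of -0.593. The 152 genes whose member was more than 2 times as wide were higher in 79.6% and lower in 7.24%, with a median of 1.82. Across the 7324 genes the log2 width ratio and the RNA log2 fold change had a Pearson r of 0.43 and a Spearman rho of 0.348, given as a description, since genes are not independent and share libraries. The ratio is taken over the ex vivo width, which by itself went with the RNA. Genes with a member of 500 to 1000 bp were higher in 53.3% and lower in 21.3% (n = 366). With a member of 5000 to 10000 bp the shares were 27.5% and 47.9% (n = 755). The part of the ex vivo width in the relation was not tested. The number of ATAC sites in the member went with no such shift: genes with fewer sites at 7 d had a median of 0.078, with as many 0.155 and with more 0.1.

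**Figure D4:**
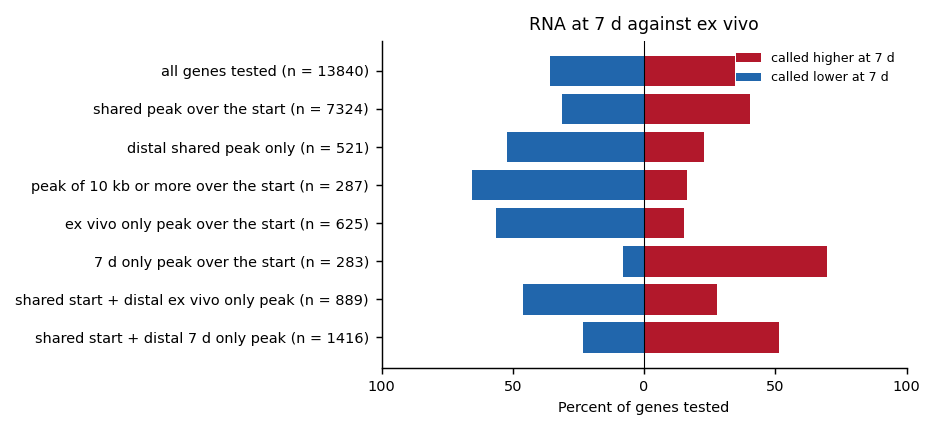
Percent of genes tested (x axis) called higher (right) or lower (left) in RNA at 7 d against ex vivo, by the H3K27ac peak over the gene's start or near it. Genes with a shared peak over the start were 40.4% higher and 31.3% lower, beside 34.8% and 35.7% of all genes tested, which include them. The other classes lean further to one side.

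Among genes that had members only at a distance, more were lower than higher. For 802 genes a distal member lay nearest within 100 kb and none lay over the start. Of the 521 that passed the filter, 272 (52.2%) were called lower and 120 (23%) higher, beside 35.7% and 34.8% of all genes tested. Their median log2 fold change was -0.748. Many of them had another H3K27ac peak over the start. A peak of 10 kb or more lay there for 110 (60.9% lower, 13.6% higher), an ex vivo only peak for 90 (62.2% and 14.4%) and a 7 d only peak for 36 (13.9% and 63.9%). The 285 with no H3K27ac peak over the start were lower in 50.5% and higher in 24.2%. The 2612 tested genes with a start window and no member at either place were lower in 45.3% and higher in 24.4%, with a median of -0.595, and no test compared these sets. The median distance from a distal member to its nearest start was 16585 bp.

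Most transcription factors of the lineage with a shared promoter peak were not called. Of 12 tested, 2 rose (Mitf and Nr1h3), 1 fell (Smad3) and 9 were not called. On deposited TPM 3 to 5 fell, and without 7 d replicate 1 there were 2. The median log2 fold change of the 12 was -0.0638. It was negative in every alternative (lowest -0.287) except without 7 d replicates 2 and 3 together, where it was 0.0119. A further 5 of the 26 on the list had a peak of 10 kb or more over the start, 1 a 7 d only peak, and 8 had no start window. Of all 26, 5 rose, 9 fell and 12 were not called. For this list and those below, the shares over all genes tested are 34.8% higher and 35.7% lower. Tfe3 was at 263, 240.0, 249, 295 and 292 CPM ex vivo and at 266, 191, 224, 261 and 294 CPM at 7 d, a log2 fold change of -0.11 ± 0.11 (SE, adjusted p = 0.376 by edgeR). Runx1, at 239 ± 33.1 and 266 ± 75.4 CPM (SD, n = 5 each), and Stat3, at 213 ± 17.3 and 194 ± 28.6 CPM, overlapped between the groups too. Smad3, the transducer of TGFb signals, was at 284, 237, 228, 326 and 305 CPM ex vivo and at 73.2, 58.1, 59.4, 80.8 and 76.6 CPM at 7 d. All 5 7 d libraries of Smad3 lay below all ex vivo ones, and it fell by 1.99 ± 0.13 on the log2 scale (edgeR adjusted p = 1.11e-09), while 75.3% of its member was still covered.

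Receptors and surface genes of microglia with a shared promoter peak fell or were not called. Of 8 with a member over the start, 5 fell (Itgam, Olfml3, Adgrg1, Slc2a5 and Cd33) and 3 were not called (Trem2, Fcgr3 and Ptprc), with a median log2 fold change of -2.19, and 7 further genes of the list, Cx3cr1 and P2ry12 among them, had a peak of 10 kb or more. Over the whole list of 24, 19 fell, 2 rose and 3 were not called, with a median of -2.71, so the fall was not particular to genes with a member. The non-calls of Trem2 and Fcgr3 (edgeR adjusted p = 0.0568 and 0.0586) changed with the libraries used: Trem2 was called higher without ex vivo replicate 3, 7 d replicate 1 or 7 d replicate 4, and Fcgr3 lower without ex vivo replicate 4 or 7 d replicate 5. Fcgr3 was also called lower with RLE scaling, DESeq2 and the deposited TPM. Adgrg1, an adhesion receptor typical of microglia, was at 1432.6, 1253.3, 1293.6, 1694.5 and 1678.7 CPM ex vivo and at 14.6, 14.3, 20.5, 10.5 and 9.47 CPM at 7 d. Its libraries were far apart, and it fell 106-fold (edgeR adjusted p = 1.26e-11) while 34.9% of its 3176 bp member (chr8:94982835-94986010) was covered at 7 d. Slc2a5, a fructose transporter, fell by 9.55 ± 0.50 on the log2 scale, from 510 to 716 CPM ex vivo to 0.277 to 1.63 CPM at 7 d, with 23.5% of its 7164 bp member (chr4:150115831-150122994) covered. Olfml3, a secreted protein enriched in microglia, went from 1451.3 to 2184.5 CPM ex vivo to 67.5 to 182 CPM at 7 d with 63.6% of its member covered. Olfml3 was at 23.2 and 18.8 CPM at 6 h, at 13.8, 13.1 and 10.7 CPM at 24 h and at 1205.7 and 984 CPM at 7 d with TGFb, a contrast not tested here. Trem2, a lipid-sensing receptor whose member was fully covered at 7 d, was at 664 ± 162 and 882 ± 214 CPM (SD, n = 5).

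Phagocyte, lysosome and lipid genes rose almost throughout. Of 11 with a shared promoter peak, 10 rose (Apoe, Cd63, Ctsl, Ctsz, Grn, Lamp1, Lamp2, Lipa, Npc2 and Plin2) and 1 fell (Abca1), with a median log2 fold change of 1.71. Over the whole list of 24, 21 rose and 2 fell, with a median of 2.24. Lamp1 was at 750.0, 840.0, 831, 827 and 881 CPM ex vivo and at 2809.2, 2044.8, 2313.1, 2698.9 and 2883.0 CPM at 7 d, a rise of 3.09-fold (edgeR adjusted p = 1.15e-08), and 86.9% of its member was covered at 7 d. Ctsl rose 5.28-fold, from 279.5 to 491 CPM ex vivo to 1822.1 to 2384.9 CPM. Plin2, the coat protein of lipid droplets, was at 22.9, 14.4, 21.6, 15.3 and 20.9 CPM ex vivo and at 3016.9, 2664.3, 2589.2, 3121.7 and 2968.5 CPM at 7 d. Its libraries did not come near each other, it rose 151-fold (edgeR adjusted p = 1.27e-13), and its member of 1990 bp (chr4:86668555-86670544) lay within 7 d peaks of 9593 bp. Grn rose 1.38-fold and lost its call on the deposited TPM (adjusted p = 0.107 by limma).

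Cholesterol synthesis genes rose together. All 12 with a shared promoter peak were called higher, with a median log2 fold change of 2.43, and the other 6 of the list had no start window. The whole list of 18 was called higher, with a median of 2.47. Hmgcs1 was at 25.9, 36, 32.2, 23.7 and 21.2 CPM ex vivo and at 169, 109, 146, 129 and 212 CPM at 7 d, a 5.5-fold rise (edgeR adjusted p = 7.35e-07). Its member of 1156 bp was wholly covered by a 7 d peak of 1990 bp. Srebf2, the factor that drives the pathway, rose 5.25-fold and Cyp51, a lanosterol demethylase, 14.7-fold, while the covered share of their members was 91.7% and 72.6%. No library of Hmgcs1, Srebf2 or Cyp51 at 7 d reached down to the ex vivo range.

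Interferon-response genes rose unevenly between libraries. Of 9 with a shared promoter peak, 8 rose and Ddx58 was not called, with a median log2 fold change of 2.68, and 4 further genes, Rsad2, Ifit1, Oasl2 and Oas1a, had a 7 d only peak over the start. Without 7 d replicate 5, and with only the 10 ex vivo and 7 d libraries in the fit, all 9 were called higher, and without 7 d replicates 2 and 3 together 6 were. Over the whole list of 17, 15 rose and 2 were not called in the main fit, with a median of 2.98. Stat2 was at 56.3, 64.6, 54.3, 59.4 and 64.7 CPM ex vivo and at 257, 197, 228, 296 and 153 CPM at 7 d (edgeR adjusted p = 6.66e-05). Irf7, which amplifies interferon signals, was at 5.3 to 8.44 CPM ex vivo and at 54.8, 149.9, 194, 104 and 17.2 CPM at 7 d. All 7 d libraries of Irf7 were above the ex vivo ones, with replicate 5 lowest. The call for Irf9 (edgeR adjusted p = 0.0499) was lost when either 7 d replicate 2 or 3 was left out (0.0651 and 0.0838) and in 12 other alternatives.

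Immediate-early genes were high and variable ex vivo. Of 13 with a shared promoter peak, 9 fell (Dusp1, Egr2, Fos, Ier5, Jun, Jund, Klf2, Klf4 and Nr4a1) and 4 were not called, with a median log2 fold change of -2.41. Over the whole list of 21, 16 fell and 5 were not called, with a median of -3.95. Fos was at 5326.7, 534, 23.2, 2024.6 and 1951.8 CPM ex vivo and at 100.0, 54.1, 52.7, 129 and 76.1 CPM at 7 d (edgeR adjusted p = 0.000354). Ex vivo replicate 3 of Fos lay below every 7 d library and replicate 1 far above, so the groups overlapped. The member over Fos (chr12:85471674-85475548) was covered in full at 7 d, and so was that over Dusp1, a phosphatase gene, at 604 ± 619.8 CPM ex vivo and 16.4 ± 5.93 CPM at 7 d.

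Inflammatory genes with a shared promoter peak mostly passed no test between these times. Of 9 with a shared promoter peak, Icam1, Il1b and Nlrp3 fell and 6 were not called, with a median log2 fold change of -0.239. Without ex vivo replicate 2, 5 fell. The median was -0.391 without 7 d replicate 1, -0.37 without ex vivo replicate 3, -0.153 without 7 d replicate 2 and -0.0741 without 7 d replicates 2 and 3 together. Over the whole list of 20, 3 rose, 8 fell and 9 were not called in the main fit. Tlr2, a receptor for bacterial lipoproteins, was at 156 ± 16.5 and 139.8 ± 63.8 CPM (edgeR adjusted p = 0.574, n = 5), and its groups overlapped. Between these times it was at 1255.8 and 993 CPM at 6 h and 467, 489.5 and 391 CPM at 24 h, so the ex vivo and 7 d levels are not those of the whole course. Nlrp3, the inflammasome sensor, fell from 133 to 258 CPM ex vivo to 41.9 to 91.4 CPM at 7 d (edgeR adjusted p = 9.76e-05).

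Proliferation genes rose with a wide spread at 7 d. Of 7 with a shared promoter peak, 6 rose and Mcm7 was not called (edgeR adjusted p = 0.0545), while 7 further genes, Mki67, Top2a and Cdk1 among them, had a 7 d only peak over the start. Over the whole list of 17, 15 rose and 2 were not called, with a median log2 fold change of 2.59. Mcm5, a subunit of the replicative helicase, was at 4.88 to 12.5 CPM ex vivo and at 21, 115, 58.3, 34.3 and 6.19 CPM at 7 d (edgeR adjusted p = 0.0012). Replicate 2 was highest and replicate 5 lay within the ex vivo range. The 7 d replicates 2 and 3 stood apart from the others (r = 0.9928 with each other and 0.9575 to 0.9786 with the rest), and without them Mcm3 was no longer called (log2 fold change 0.38, adjusted p = 0.107).

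Genes listed as writers, erasers and readers of H3K27ac and their partners changed in both directions. Of 12 with a shared promoter peak, 7 fell: the acetyltransferases Ep300, Crebbp and Kat2a, the H3K27 demethylase Kdm6a, the H3K4 methyltransferases Kmt2c and Kmt2d, and the Mediator subunit Med1. Hdac2 and Smarca4 rose and 3 were not called, with a median log2 fold change of -0.467. Over the whole list of 17, 2 rose, 9 fell and 6 were not called. Kmt2d was at 1218.5 ± 405 CPM ex vivo and 397 ± 139 CPM at 7 d (edgeR adjusted p = 2.19e-05, n = 5), with no overlap. Ep300, at 465 ± 92.1 and 301 ± 99.5 CPM, and Crebbp, at 317 ± 75 and 204 ± 79.1 CPM, overlapped between groups. Without 7 d replicates 2 and 3 Ep300 and Crebbp were no longer called (log2 fold changes -0.32 and -0.28, edgeR adjusted p = 0.0711 and 0.131), and 4 of the 12 genes fell. The call for Crebbp was also lost without ex vivo replicate 5 (0.0644) and without 7 d replicate 3 (0.0531). Of 10 broadly expressed genes with a shared promoter peak, 7 rose, 2 fell and 1 was not called, with a median log2 fold change of 0.989, and Eef1a1, Rps3 and Rplp0, at 2.49-, 3.5- and 4.11-fold, can share reads with pseudogenes. Over the whole list of 16 broadly expressed genes, 10 rose, 3 fell and 3 were not called.

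**Figure D5:**
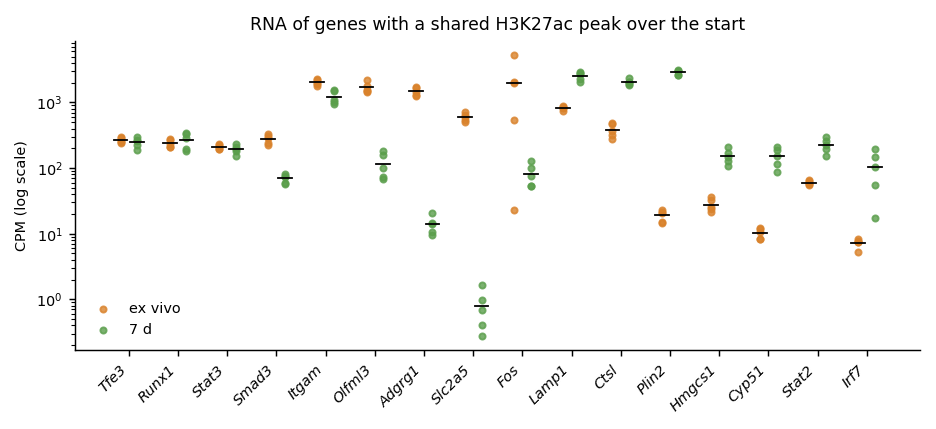
RNA in CPM (log axis) of 16 genes with a shared H3K27ac peak over the start, in the 5 ex vivo and 5 7 d libraries (points) with the mean of each group (line). Tfe3, Runx1 and Stat3 overlap between groups, Adgrg1 fell from 1470.6 to 13.9 CPM, and Plin2 rose from 19 to 2872.1 CPM.

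The 10 largest rises under shared promoter peaks all had a member that was covered in full at 7 d, and the 10 largest falls had members that were covered in part. Coverage of these members was not compared with that of members of equal width. Genes low ex vivo tend to have narrow members: the median was 9.13 CPM ex vivo at 500 to 1000 bp and 109 CPM at 5000 to 10000 bp. The rises were Jag1, Vim, Plin2, Phlda3, Lmna, Id3, Lyz2, Anpep, Sash1 and Ankrd33b, from 54.8- to 239-fold. Vim, the intermediate filament vimentin, was at 3.34, 7.63, 8.43, 1.72 and 6.67 CPM ex vivo and at 1211.9, 1145.3, 898, 1232.1 and 1118.5 CPM at 7 d, and its member of 1319 bp (chr2:13573140-13574458) lay under 7 d peaks of 4435 bp. Lyz2, lysozyme, rose from 57.5 to 136 CPM to 4089.4 to 10868.3 CPM, with a member of 1047 bp under 7 d peaks of 10937 bp, and can share reads with its close copy Lyz1. Jag1, a Notch ligand, was at 0.573 to 1.86 CPM ex vivo and 95.9 to 369 CPM at 7 d.

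The falls were Hspa1b, Hspa1a, Slc2a5, Crybb1, Mycl, H2-Oa, Tmem44, Adgrg1, Socs3 and Dyrk4, from 85.3- to 1290.4-fold. Their members were covered over 5.02% (Crybb1) to 63.9% (Hspa1b) at 7 d. Crybb1, a crystallin gene expressed by microglia, was at 204, 90.4, 183, 88.2 and 178 CPM ex vivo and at 0.184, 0.343, 1.11, 0.158 and 0.171 CPM at 7 d, and 501 bp of 7 d peak lay over its member of 9975 bp (chr5:112248083-112258057). Hspa1a and Hspa1b are near-identical heat-shock genes that can share reads, so their separate values are uncertain, and Hspa1a ranged from 5.2 to 714 CPM among the ex vivo libraries. Not called at the highest levels were Selenop, Hspa5, Wnk1, Hsp90b1 and Trem2. Selenop, a selenium carrier, was at 2150.9 ± 539.7 and 1838.0 ± 415 CPM (edgeR adjusted p = 0.444, n = 5), though at 92.3 and 43.4 CPM at 6 h.

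Markers of other cells that had a start window were mostly outside members. In the 12 marker lists, 4 genes had a member over the start: Slc1a3 (astrocyte), Cnp (oligodendrocyte), Kdr (endothelium) and Mrc1 (border macrophage). Over all genes, 7491 of 17601 with a start window had one under a member. Markers without a start window could not be placed: only 1 of 4 choroid plexus and 2 of 4 B cell markers had one. In RNA the 6 astrocyte markers summed to 170 to 394 CPM ex vivo and 6.99 to 8.55 CPM at 7 d, the 6 oligodendrocyte markers to 88 to 222 and 47.1 to 71.5 CPM, and the 6 neutrophil markers to 3.22 to 171 and 0.321 to 2.08 CPM. Monocyte markers summed to 5.1 to 48.7 and 3.21 to 5.79 CPM, choroid plexus markers to 1.73 to 118 and 0.361 to 1 CPM, and border macrophage markers to 7.27 to 98.9 and 54 to 117 CPM. Further lists were neuron (2.34 to 16 and 0.571 to 1.11 CPM), oligodendrocyte precursor (0.702 to 3.01 and 0.579 to 19.5 CPM), endothelium (13.2 to 18.6 and 14.1 to 41.8 CPM), B cell (0.0573 to 0.502 and 0 to 0.0401 CPM) and T and NK cell (0.0468 to 0.594 and 0 to 0.0803 CPM). Cldn5 and Ncr1 were at 0 in all 10 libraries. The part of other cells in the RNA differences and in the ex vivo peaks was not tested.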

How the data were processed

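The authors deposited whole-number read counts and a TPM table per gene symbol and, as intervals without a score, 6 peak lists. Per the file headers, HOMER findPeaks ran on pooled tags (histone style, 500 bp regions joined within 1000 bp, against input, for H3K27ac). The submitters' processing notes list mm10 and hg38 as builds and, as tools, Bowtie2, STAR, R 3.3.1, limma, bedtools and HOMER. Their roles are unstated: not given in the sources used here. Starts are RefSeq windows (GRCm38.p6) of 250 bases before to 50 after a start. A gene took the class of the first peak over its start in the order shared, 10 kb or more, ex vivo only, 7 d only. Counts of 17 microglial libraries were fitted with edgeR 4.0.16 (TMM, filterByExpr, quasi-likelihood test, Benjamini-Hochberg over all genes tested, threshold 0.05) in R 4.3.3, with limma 3.58.1 on log2 TPM and DESeq2 1.42.0 as alternatives. The procedure was also run on simulated counts in which a small part of the genes changed, equally in both directions. In the real data most genes were called, a setting that the simulation did not test. CPM use TMM library sizes, except sums of marker lists, which use total counts. Named genes are up to 6 per list by CPM with a member over the start, the 10 largest rises and 10 largest falls of at least 20 CPM without overlap, and 5 genes not called. The members and the 10 gene and 12 marker lists were chosen with earlier results of these data known, and the levels of 1 marker list are not reported here. The labels do not say whether replicate numbers pair the libraries, and the main fit did not pair them.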

Additional observations from a re-analysis of the deposited data

Results flagged for a closer look

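In 7 of 164 groups of 5 libraries checked among the named genes, 1 library lay far from the other 4 (gap over 0.71 of the range), and chance gives about 1 in 20. Ex vivo replicate 1 held Hspa5 at 3299 CPM, with the others at 581 to 1301.4 CPM, and Tmem44 at 101 CPM, with the others at 63.6 to 73.5 CPM. Ex vivo replicate 4 held Fcgr3 at 549.4 CPM (others 780 to 851) and Cenpe at 1.791 CPM (others 0.968 to 1.19). Ex vivo replicate 2 held Irf9 at 80.6 CPM (others 65 to 69.4) and ex vivo replicate 3 Ncor1 at 216.6 CPM (others 278 to 294). The 7 d replicate 3 held Crybb1 at 1.115 CPM (others 0.158 to 0.343). The causes were not tested.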

How the results depend on the processing

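The number of members, 16106, ranged from 11265 (reciprocal 50% overlap with a single 7 d peak) to 16623 (no width limit). With the peak centre inside the member in place of 1 bp, the shares overlapping H3K4me2, PU.1, ATAC ex vivo and ATAC 7 d were 86.7%, 87.8%, 94.2% and 95.3%, with a width limit of 5 kb 88.9%, 87.9%, 94.9% and 96.2%, and with at least 50% of the member covered at 7 d H3K4me2 was at 90.6% and ATAC 7 d at 97%. Among genes with a shared peak over the start, calls stayed within 1.5 times of the 2957 higher and 2295 lower in every alternative run, and leaving out 1 library gave 2813 to 2996 and 2202 to 2328. On deposited TPM the median log2 fold change turned to -0.0675 (pseudocount 1), -0.0816 (0.1) and -0.0677 (mean TPM of at least 1), where the median of all genes was -0.0543, -0.207 and -0.153. With DESeq2 that median was -0.152 and without a filter -0.198, and the shared-start median was 0.0642 and 0.133. Distal genes gave 77 higher and 177 lower with a nearest start within 20 kb, since fewer genes enter, and 112 to 123 and 263 to 270 leaving out 1 library. A replicate block gave 2742 higher and 2183 lower at shared starts and 100 and 229 for distal genes, with 6 immediate-early and 5 inflammatory genes lower, 1 receptor gene higher and 6 lower, and 9 interferon genes higher. Same-numbered libraries correlated at -0.00694, -0.0326, 0.202, 0.0322 and 0.0619. For ex vivo replicates 3 and 5 the 7 d library of the same number gave the highest correlation. The labels name no shared source, and these low correlations cannot exclude one. Without 7 d replicates 2 and 3, an alternative chosen after seeing the data, 2769 were higher and 2214 lower. Of 1558 values of 82 named genes under alternatives, 1467 kept their side of the threshold and direction, 40 lost the call (6 genes: Grn, Irf9, Mcm3, Polr2a, Ep300 and Crebbp), 51 gained one and none reversed. The peak lists differ in depth and each is 1 pooled call, so regions have no replicate spread.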
